A study of Mus musculus with 21 samples.

Results

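The cytosolic ribosomal protein genes are the genes for the proteins of the large (Rpl) and small (Rps) subunits of the ribosome that translates messenger RNA in the cytosol. Members were taken by symbol: Rpl or Rps followed by a number and at most 1 of the letters a, x, l, y or p and a further number, plus Rplp0, Rplp1, Rplp2, Rpsa and Fau, with pseudogenes named -ps left out. The rule found 83 genes in both deposited tables, of 22786 genes that both tables hold. Of these, 49 belong to the large and 34 to the small subunit. It found Rpl10l in only 1 table, so Rpl10l was set aside, and it does not take Rpl36al.

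RNA levels were measured in 21 libraries of cells sorted from mouse main olfactory epithelium. Each mouse carried a tetO transgene, which a tTA driver switches on: either tetO-HyperTRIBE-mCherry (HT) or tetO-Mex3a-HyperTRIBE-mCherry (MexHT). Mex3a is an RNA-binding protein, and HyperTRIBE is an RNA-editing domain that marks the RNAs its fusion partner binds. All mice carried the gg8-tTA driver, which acts in immature olfactory sensory neurons (OSN), and 17 libraries came from mice that also carried OMP-tTA, which acts in mature OSN. With both drivers (gg8+OMP) there were 6 MexHT and 3 HT libraries of mCherry-positive cells, labelled immature and mature OSN, and 5 MexHT and 3 HT libraries of mCherry-negative cells. With gg8 alone there were 2 MexHT libraries of mCherry-positive cells, labelled immature OSN, and 2 of mCherry-negative cells. Mice with gg8 alone and HT were not analysed here. The mCherry-negative cells are labelled as the internal control. The replicate was therefore taken as the mouse, and libraries of either fraction with the same replicate number as the same mouse. The library names carry 1 date for the gg8 mice and another for the gg8+OMP mice. The name of the gg8 data also carries the word Clonetech, which that of the gg8+OMP data lacks. Driver, date and whatever that word denotes cannot be told apart. Ages are not given in the labels used here.

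The ribosome reads messenger RNA in its small subunit and joins amino acids in its large subunit, and each ribosomal protein is needed in about equal numbers. In mammals most of these genes carry a terminal oligopyrimidine (TOP) motif: transcription starts at a C inside a run of pyrimidines, and the resulting run at the 5′ end of the messenger lets the mTOR pathway and Larp1 control its translation as a group. In the olfactory epithelium, neurons are made throughout life from basal stem cells, through dividing progenitors and immature neurons, and ribosome production is known to be high in dividing cells.

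The start sites of the members were shown because TOP control acts there. RefSeq promoter windows (GRCm38.p6, the patch of the mm10 build that the submitters name) were matched for 62 of the 83 members. The windows below hold 30 bases before and 20 bases after the annotated start, printed 5′ to 3′ on the strand of the gene, and the capitals mark a run of at least 6 pyrimidines that begins with C and touches the 15 bases on either side of the start. Among the windows shown, Rpl35, Fau and Rps6 have the longest runs, of 18, 16 and 10 bases. Members not shown have runs of up to 20 bases. Rpl12, Rpl22l1 and Rps26 have shorter runs, of 6, 8 and 8 bases, and are members on which results below turn. Rplp0 and Rpl36a are such members with no run in this window.
Rps6, chr4:86857348-86857397, minus strand: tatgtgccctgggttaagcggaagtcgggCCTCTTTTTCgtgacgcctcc
Rpl35, chr2:39005112-39005161, minus strand: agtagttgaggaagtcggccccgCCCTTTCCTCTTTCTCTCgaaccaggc
Fau, chr19:6057917-6057966, plus strand: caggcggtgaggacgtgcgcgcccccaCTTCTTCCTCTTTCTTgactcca
Rpl12, chr2:32961682-32961731, plus strand: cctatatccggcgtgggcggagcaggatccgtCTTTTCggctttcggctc
Rpl22l1, chr3:28805478-28805527, plus strand: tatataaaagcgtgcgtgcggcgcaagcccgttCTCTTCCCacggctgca
Rps26, chr10:128626487-128626536, minus strand: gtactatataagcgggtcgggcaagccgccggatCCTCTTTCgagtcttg
Rplp0, chr5:115559437-115559486, plus strand: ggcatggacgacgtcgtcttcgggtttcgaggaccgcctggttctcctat
Rpl36a, chrX:134585624-134585673, plus strand: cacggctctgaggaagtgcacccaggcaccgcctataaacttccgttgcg

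Such a run was present for 42 of the 62 matched members (67.7%), against 33.2% of the 27025 genes with a window. A C followed by at least 4 pyrimidines exactly from the annotated start was present for 14 of 62 (22.6%), against 3.0% of genes. Over the whole window of 300 bases, CTCTTTC on either strand was found in 29.0% of the members and 9.3% of genes, and CCGGAAG, the core letters that Ets factors bind, in 40.3% and 9.9%. A match of letters describes the window and is not a measured site.

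The depth, as whole counts recovered from the steps in the TPM values (transcript abundance per length, scaled to the same total in each library, the deposited unit), was 7425287 to 15215673 counts per library. Mex3a, the transgene's own gene, checked the labels: it was at 328.5 to 1271 TPM in MexHT OSN and 24.0 to 61.5 TPM in HT OSN, and at 460.3 and 1632 TPM in gg8 OSN. The MexHT mCherry-negative libraries (57.8 to 207 TPM) overlapped the HT ones (29.3 to 74.3 TPM). Omp, the marker of mature OSN, was at 1785 to 2704 TPM in HT OSN, 682 to 1597 TPM in MexHT OSN and 53.8 to 164 TPM in gg8 OSN. Gap43, the marker of immature OSN, was at 254 to 358, 515 to 758 and 93.8 to 672 TPM in the same order. The mCherry-negative cells were not free of neurons, with Omp at 1093 to 2159 TPM in HT and 46.9 to 1431 TPM in MexHT. They held markers of granulocytes, connective tissue and vessels that were far lower, though not absent, in OSN. Granulocyte markers summed to 0.619 to 1.54% of all TPM in the gg8+OMP mCherry-negative libraries and to 0.0158 to 0.0452% in OSN. Xist was under 1 TPM in 2 of the 3 HT mice and at 55.3 to 163 TPM in all MexHT libraries with both drivers, so the sexes of the mice differed between the constructs. With gg8 alone Xist was at 0.441 and 159 TPM in OSN and at 0.144 and 21.4 TPM in mCherry-negative cells. What this means for the gg8 comparison was not tested.

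Together the members took 2.64 to 6.51% of the TPM of a library, with the lowest shares in HT OSN and the highest in MexHT mCherry-negative cells. In HT OSN the share was 2.72, 2.64 and 3.33% in the 3 mice, and in MexHT OSN it was 3.20, 3.75, 3.69, 4.25, 4.13 and 4.99%. The HT mCherry-negative libraries of the same 3 mice stood at 4.35, 3.65 and 5.31%, and the 5 MexHT ones at 5.62, 4.79, 6.08, 5.94 and 6.51%. The share was lower in OSN than in mCherry-negative cells of the same mouse in all 8 mice with both drivers that gave the pair, at 0.570 to 0.782 times its value in MexHT mice and 0.624 to 0.723 times in HT mice. In the 2 gg8 mice the ratio was 0.774 and 0.968. MexHT OSN overlapped HT OSN only where the lowest MexHT mouse (3.20%) fell under the highest HT mouse (3.33%).

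**Figure D1:**
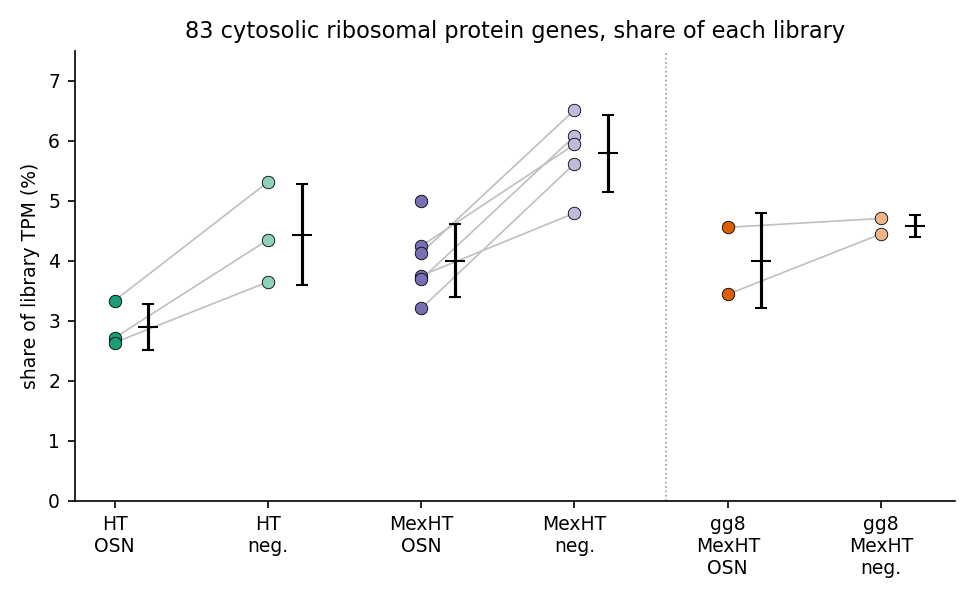
Share of all TPM taken by the 83 ribosomal protein genes (vertical axis, percent) in each library, by group (horizontal axis). Points are libraries, grey lines join the fractions of 1 mouse, bars give the mean and SD, and the gg8 libraries come from a separately scaled table. The means are 2.90% in HT OSN, 4.44% in HT mCherry-negative and 5.79% in MexHT mCherry-negative cells, MexHT OSN runs from 3.20 to 4.99%, and each line rises from OSN to the mCherry-negative library of the same mouse.

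Per length, as TPM is, the members differed widely in level. The 5 highest by mean over the 17 gg8+OMP libraries were Rplp1 (1537 TPM) and Rplp2 (1431 TPM), the acidic stalk proteins that recruit translation factors, then Rps9 (1257 TPM), a protein of the small subunit body, Rpl8 (1202 TPM), which lies near the site of peptide bond formation, and Rpl13a (1191 TPM), of the large subunit. These 5 made up 15.01% of the members' TPM. In all, 10 members had a mean of 1000 TPM or more, 64 lay between 100 and 1000 TPM, 4 between 10 and 100 TPM, and 5 under 10 TPM. The median member was at 474.6 TPM. In the ranking of all genes of a library, the median member stood at place 335 to 548 in HT OSN and 141 to 187 in MexHT mCherry-negative cells, and 53 to 66 and 70 to 72 members were among the 1000 highest genes. The order of the members hardly differed between groups: Spearman's rho of their mean levels was 0.931 to 0.993 over the 15 pairs of groups, as a description across genes that share their libraries and their lengths.

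Ribosomal proteins were compared first between the constructs in OSN with both drivers, which asks what Mex3a joined to HyperTRIBE does beyond HyperTRIBE alone. In MexHT OSN, 39 of the 81 members tested were higher than in HT OSN and 0 were lower (limma on log2(TPM + 1), Benjamini-Hochberg adjusted p under 0.05). Over all genes tested, 36.8% were called, 19.9% as higher and 16.8% as lower, and among genes at 100 TPM or more 30.1% were called higher. The members' median log2 difference was 0.44, against 0.03 for all genes tested. The groups did not overlap, with all 6 MexHT libraries above all 3 HT libraries, for 29 members, while 21.5% of all genes tested had that pattern. In the large subunit 21 of 47 were called with a median of 0.42, and in the small subunit 18 of 34 with a median of 0.47. The summed TPM of the large subunit genes divided by that of the small subunit genes was 1.5022, 1.4975 and 1.5065 in the 3 HT OSN libraries and 1.3635 to 1.4577 in the other 18 libraries. Members with a pyrimidine run at the start (19 of 41 called) and matched members without it (9 of 19 called) both had a median of 0.42. Of the 3 genes with the longest runs shown above, Rpl35 was higher (0.77, limma adjusted p = 0.00492), and Fau (0.44, adjusted p = 0.0546) and Rps6 (0.10, adjusted p = 0.54) were not called.

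**Figure D2:**
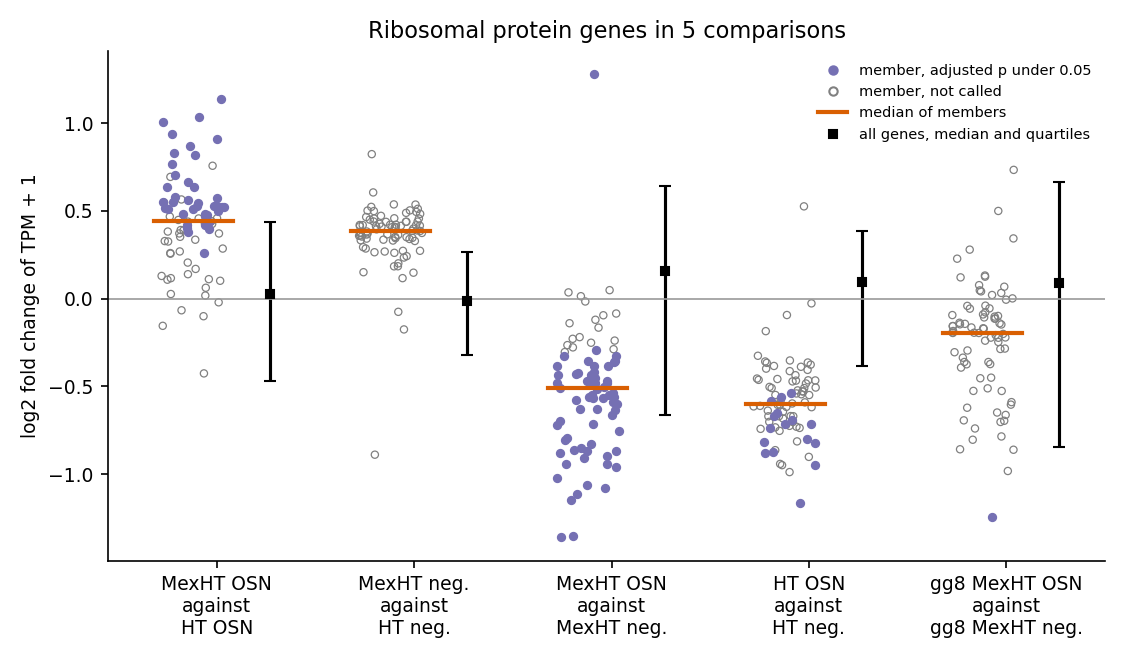
Log2 difference of each ribosomal protein gene (vertical axis, on the log2(TPM + 1) scale) in 5 comparisons (horizontal axis). Each point is a gene, filled where the adjusted p is under 0.05, the orange line is the median of the members, and the black bar gives the median and quartiles of all genes tested. The members lie mostly above 0 between constructs (medians 0.44 in OSN and 0.39 in mCherry-negative cells) and below 0 between fractions (medians -0.51, -0.60 and, for gg8 mice, -0.19, or 0.042 with quantile normalization).

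Rps27l, a paralog of Rps27 and a known target of p53, differed most. It was at 58.2, 50.9 and 61.7 TPM in the 3 HT OSN libraries and at 107 (lowest), 125 (median) and 159 TPM (highest) in MexHT OSN. Every MexHT mouse was above every HT mouse, and the log2 difference was 1.14 (SE 0.13, limma adjusted p = 0.000322). Rps19, a protein of the small subunit head whose loss of a copy underlies Diamond-Blackfan anaemia, stood at 264, 256 and 385 TPM in HT OSN and at 449, 589 and 902 TPM (lowest, median, highest) in MexHT OSN. The groups did not overlap (log2 difference 1.04, SE 0.22, limma adjusted p = 0.0052). Rpl22, a large subunit protein on the outer surface near the tunnel exit, was at 129.5, 127 and 171 TPM in HT OSN and at 228, 277 and 361 TPM in MexHT OSN, again without overlap (log2 difference 1.00, SE 0.15, limma adjusted p = 0.00111). Rplp0, the base of the stalk that holds Rplp1 and Rplp2, went from 381, 370.0 and 519 TPM to 616, 752 and 997 TPM (0.87, SE 0.19, limma adjusted p = 0.00559). Its groups did not overlap either.

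By role, 3 members were listed on the side where the messenger leaves the small subunit. Of these, Rps14 (log2 difference 0.71) and Rps26 (0.82) were higher, and Rps28 (0.46) was not called. On the entry side the members listed were Rps2, Rps3 and Fau, and none was called (median 0.26). Of the 8 members tested that line or surround the peptide exit tunnel, 6 were higher (median 0.51), but Rpl39, the small protein inside the tunnel, differed by -0.07 (limma adjusted p = 0.774). In the stalk, Rplp0 rose and the other 3 did not pass the test: Rplp1 differed by 0.37, Rplp2 by 0.35 and Rpl12, which sits beside Rplp0 at the stalk base, by 0.12 (limma adjusted p = 0.112, 0.137 and 0.586). Rpl5 and Rpl11, which carry the 5S RNA into the large subunit and bind Mdm2 when free, were not called, with Rpl5 at -0.16. None of Rpl3, Rpl8 and Rpl10, which lie near the peptide bond centre, was called, with Rpl3 at 0.02 and Rpl8 at 0.44. Of the members fused to a ubiquitin-like sequence, Fau and Rps27a, only Rps27a passed (0.64, limma adjusted p = 0.00701). Among the most abundant members, Rps9 (0.48, limma adjusted p = 0.0308) and Rpl13a (0.55, limma adjusted p = 0.0493) were higher. The roles hold few members each, and differences between roles were not tested. The smallest spread within groups belonged to Rps13, at 197, 196 and 204 TPM in HT OSN and 228 to 252 TPM in MexHT OSN, and its log2 difference of 0.26 passed the test (limma adjusted p = 0.0253). Rpl30 was called too, but it rests on 0 to 2 counts in HT OSN and 2 to 4 counts in MexHT OSN, so no fold is given.

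Cell markers moved with this comparison. Of 12 mature OSN markers 11 were lower in MexHT OSN (median -1.42) and their summed share was 0.234 to 0.68% against 0.945 to 1.46% in HT OSN. Of 11 immature OSN markers 8 were higher (median 0.85), with a summed share of 0.562 to 0.658% against 0.354 to 0.378%. Progenitor and cell cycle markers were higher for 3 of 10, with shares of 0.0232 to 0.093% against 0.0139 to 0.02%, and immune markers were lower for 10 of 10 (0.0321 to 0.0633% against 0.137 to 0.565%). Their part in the ribosomal protein difference was not tested, and in such bulk libraries fewer cells of a type and less RNA per cell cannot be told apart. With the Xist level as a covariate 1 member, Rps27l, was still called, while calls over all genes fell from 3202 higher and 2705 lower to 204 and 125. The count was 12 without HT mouse 1 and 13 without HT mouse 2.

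The same constructs were compared in mCherry-negative cells, which lack the sorted reporter. None of 81 members was called, as for 0% of all genes tested with limma. With array weights, which let limma down-weight variable libraries, 73 members were higher and 1 lower, against 29.6% of all genes as higher and 30% as lower. At an unadjusted p under 0.05 there were 41 members, against 3465 of 16860 genes, and 78 of 81 members had a positive difference with a median of 0.39. The libraries did not overlap for 3 members, against 3.64% of all genes. Rps26, on the messenger exit side, was at 701, 638 and 950.2 TPM in HT and at 938, 928, 1199, 1283 and 1464 TPM in MexHT cells. Its highest HT mouse lay above the lowest 2 MexHT mice (log2 difference 0.61, limma adjusted p = 0.218). Rps27l stood at 102, 80.5 and 105 TPM in HT and at 177, 97.5, 131, 135 and 111 TPM in MexHT cells, overlapping at 1 MexHT mouse (0.42, limma adjusted p = 0.259). The 12 mature OSN markers were all lower (median -1.63) and the 10 progenitor markers all higher (median 0.84) in MexHT mCherry-negative cells, with none called, and their part in these values was not tested. In simulated data with the same numbers of libraries, 55.8% of 2-fold changes were recovered in this comparison and 65.4% in OSN. The simulated counts had the same fixed spread for all genes, drawn independently for each gene and library. In the real MexHT mCherry-negative libraries the summed mature OSN markers ran from 0.0636 to 0.753% of TPM. The percentages hold for the simulated spread only.

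**Figure D3:**
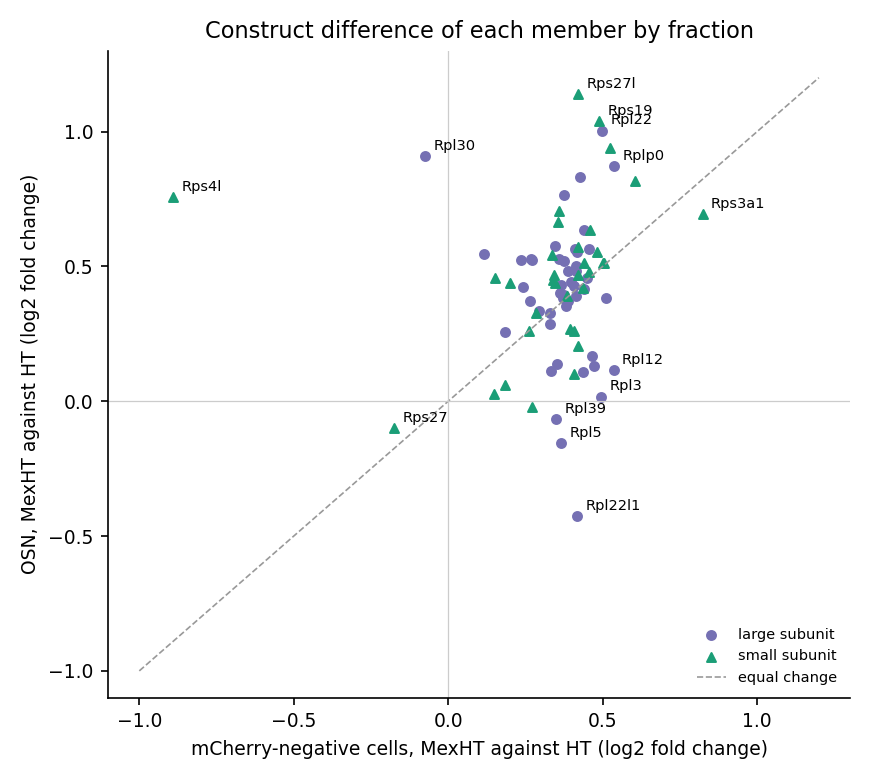
Log2 difference of MexHT from HT for each ribosomal protein gene in OSN (vertical axis) and in mCherry-negative cells (horizontal axis), both on the log2(TPM + 1) scale, with the line of equal values. Most genes lie right of and above 0, Rps27l lies highest at 1.14 in OSN, and Rpl22l1 lies lowest, at -0.43 in OSN and 0.42 in mCherry-negative cells.

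Whether the construct difference depended on the fraction was tested as the interaction over the 17 gg8+OMP libraries. Of 81 members 1 was called, as lower, against 12.4% of all genes tested (7.05% as higher and 5.37% as lower). That member was Rpl22l1, the paralog of Rpl22, which was at 48.9, 42.3 and 68.3 TPM in HT OSN, 33.1, 35.6 and 49.2 TPM (lowest, median, highest) in MexHT OSN, 80.7, 59.1 and 87.3 TPM in HT mCherry-negative and 115, 80.0, 102, 113 and 94.5 TPM in MexHT mCherry-negative cells. MexHT mice tended low in OSN and high in mCherry-negative cells, with overlap of the constructs in both. The interaction was -0.84 (SE 0.26, limma adjusted p = 0.0441), it was lost when any of 11 single libraries was left out, and neither construct difference passed on its own (-0.43, adjusted p = 0.0984, and 0.42, adjusted p = 0.229). Rpl22 itself had an interaction of 0.51 (limma adjusted p = 0.162). Rps27l reached 0.72 (SE 0.24, limma adjusted p = 0.0566), which misses the threshold, so its larger difference in OSN is not shown to be particular to OSN.

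The next comparison set OSN against mCherry-negative cells of mice with both drivers, separately for each construct. The mCherry-negative cells also held neurons, so it is not a contrast of neurons with other cells. In MexHT mice 63 of 81 members were lower in OSN and 1 was higher, against 63.4% of all genes called, 35.8% as higher and 27.6% as lower. The median log2 difference was -0.51 while that of all genes tested was 0.16, so the distance was -0.67. For 28 members all 6 OSN libraries lay below all 5 mCherry-negative libraries, against 19.6% of all genes. The large subunit had 35 of 47 and the small subunit 28 of 34 members lower. All 4 stalk proteins were among them, with Rplp0 at -0.83, Rplp1 at -0.63 and Rplp2 at -0.56. Both proteins of the 5S particle were too, Rpl5 at -0.96 and Rpl11 at -0.48, as were all 3 near the peptide bond centre, Rpl3 at -0.94, Rpl10 at -0.55 and Rpl8 at -0.47. Of the genes with the longest pyrimidine runs among the start sites shown, Rps6, the target of the mTOR-driven S6 kinases, was lower (-0.91), while Rpl35 (-0.28) and Fau (-0.12) were not called.

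Rpl12 fell most. It was at 326, 387 and 457 TPM (lowest, median, highest) in MexHT OSN and at 1009, 777, 1038, 1045 and 1093 TPM in the mCherry-negative cells, so the fractions lay far apart (log2 difference -1.36, SE 0.12, limma adjusted p = 1.1e-06). Rpl22l1, whose values stand above, had every OSN library below every mCherry-negative library (-1.35, SE 0.14, limma adjusted p = 4.85e-06). Rpl39 was at 79.4, 119 and 129 TPM in OSN and at 267, 199.8, 248, 285 and 229.8 TPM in mCherry-negative cells, without overlap (-1.15, SE 0.14, limma adjusted p = 1.55e-05). Rpl36a, an X-linked large subunit protein near the exit site for transfer RNA, was at 172, 197 and 242 TPM in OSN and at 501, 347, 441, 445 and 396 TPM in mCherry-negative cells (-1.08, SE 0.12, limma adjusted p = 1e-05), also without overlap. Rps2, on the messenger entry side, was at 155, 235 and 330.4 TPM in OSN and at 443, 474, 663, 307 and 860.3 TPM in mCherry-negative cells. The fractions overlapped, in that 1 mCherry-negative library lay within the range of OSN (-1.11, SE 0.26, limma adjusted p = 0.00217).

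Rps4l alone was higher in MexHT OSN. RefSeq places it at chr6:148354656-148355596 (GRCm38.p6) inside Tmtc1 and lists it as a transcribed pseudogene of the Rps4x family, so its symbol, not a known protein, put it among the members. It was at 14.0, 26.8 and 71.9 TPM (lowest, median, highest) in MexHT OSN and at 25.9, 12.2, 6.80, 6.07 and 11.4 TPM in mCherry-negative cells. The fractions overlapped, and the log2 difference was 1.28 (SE 0.41, limma adjusted p = 0.0152). In HT mice it stood at 26.0, 12.1 and 13.3 TPM in OSN and at 21.0, 19.0 and 23.7 TPM in mCherry-negative cells. Members not called between the fractions of MexHT mice included Rps27l (-0.02), Rpl22 (-0.17), Rps19 (-0.27) and Rpl7l1 (0.01).

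In HT mice, which have 3 libraries a fraction, 16 of 82 members were lower in OSN and 0 higher, against 11.3% of all genes called (2.18% as higher and 9.11% as lower). The members' median log2 difference was -0.60, with 81 of 82 negative, against 0.10 for all genes tested, with 7218 of 17027 negative. The OSN libraries all lay below the mCherry-negative libraries for 57 members, against 18% of all genes, and all above them for 1, against 22.9%. With the mouse as a block, which takes fractions with the same replicate number as the same mouse, 73 members were lower. In that fit 15.9% of all genes were lower and 13.2% higher. Without the block the count fell to 0 when HT OSN of mouse 1 or of mouse 2 or HT mCherry-negative of mouse 1 was left out, and to 3 without HT mCherry-negative of mouse 3, and it was 50 without that of mouse 2. Rplp0 differed most, at 381, 370.0 and 519 TPM in OSN and 913, 697 and 1299.6 TPM in mCherry-negative cells (-1.16, SE 0.26, limma adjusted p = 0.0349). Every OSN library was below every mCherry-negative library. Rpl36a was at 149, 139 and 173 TPM against 281, 240.1 and 385 TPM (-0.95, SE 0.19, limma adjusted p = 0.0255). On simulated data for this comparison 23.6% of 2-fold changes were recovered and 10.1% of the calls were false, for the simulated spread only.

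Among the members called, the next largest falls in HT OSN were those of Rps16, of the small subunit head, Rps26 and Rpl18, of the large subunit. Rps16 was at 189, 185 and 247 TPM against 364, 296 and 499 TPM (-0.88, limma adjusted p = 0.0471). Rps26 was at 354, 389 and 498 TPM against 701, 638 and 950.2 TPM (-0.88, limma adjusted p = 0.0403). Rpl18 was at 244, 226 and 277 TPM against 433, 354 and 552 TPM (-0.82, limma adjusted p = 0.0353). None of the 3 overlapped between fractions. Rpl12, at 323, 296 and 461 TPM against 685, 515 and 889 TPM, had a larger difference but did not pass (-0.94, limma adjusted p = 0.0584), nor did Rpl39 (-0.73, adjusted p = 0.0586) or Rpl22l1 (-0.51, adjusted p = 0.152). The MexHT and HT comparisons share no library, and 13 members were lower in both, which is 20.6% of the 63 and 81.2% of the 16. Since 63 of 81 members tested were lower in MexHT mice, a large overlap follows from that count alone. No agreement of single members is read from it.

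Markers of non-neuronal cells and progenitors moved with the fraction, most of them lower in OSN. In MexHT mice 8 of 8 granulocyte markers (median -6.09), 6 of 6 connective tissue and vessel markers (median -5.26), 8 of 10 progenitor markers (median -2.08) and 5 of 5 basal cell markers were lower in OSN. In HT mice 8 of 8 granulocyte markers (median -5.23), 5 of 6 connective tissue and vessel markers and 7 of 10 progenitor markers were lower in OSN. Immune markers did not move alike: in MexHT mice 7 of 10 were lower and 2 higher in OSN (median -2.77), and in HT mice 3 were higher and 0 lower (median 0.18). Sustentacular markers were lower for 4 of 8 in MexHT mice (median -1.13) and for 1 of 8 in HT mice (median 0.17), and of 5 ensheathing glia markers 1 was higher and 1 lower in MexHT mice and none was called in HT mice. Connective tissue and vessel markers summed to at most 0.0308% in OSN and to 0.782 to 2.35% in mCherry-negative cells. Of 12 mature OSN markers 1 was higher in OSN in MexHT mice (median 0.76) and 0 in HT mice (median 0.53). Of 11 immature OSN markers 8 were higher in MexHT mice (median 1.02) and 1 in HT mice (median 0.46). None of either list was lower. The part of these markers in the lower ribosomal protein levels of OSN was not tested.

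In mice with gg8 alone, of 80 members 1 was lower in OSN and 0 higher, against 8.32% of all genes called (1.12% as higher and 7.2% as lower), and 65 of 80 had a negative difference with a median of -0.19, which became 0.042 with quantile normalization. Both OSN libraries lay below both mCherry-negative libraries for 35 members, against 30.2% of all genes, and above them for 3, against 33.5%. The difference from gg8+OMP mice was not tested, since the tables were scaled separately. With 2 mice a fraction, 8.2% of simulated 2-fold changes were recovered, and 28.1% of the calls on simulated data were false. Both percentages hold for the simulated spread only. The called member was again Rpl12, at 289 and 253 TPM in OSN and 615 and 672 TPM in mCherry-negative cells (log2 difference -1.25, SE 0.26, limma adjusted p = 0.0403). Both OSN libraries were far below both mCherry-negative libraries, but the call was lost with the mouse as a block and without any of 3 of the 4 libraries. Rpl5 was at 164 and 124 TPM against 298 and 267 TPM (-0.98, limma adjusted p = 0.0777). Rps19 was at 573 and 845 TPM in OSN and 535 and 562 TPM in mCherry-negative cells, and Rps27l at 148 and 156 TPM against 125 and 126 TPM, with differences of 0.34 and 0.28 that were not called. In these OSN 9 of 12 mature OSN markers (median -4.08), 7 of 8 granulocyte markers (median -6.15), 5 of 6 connective tissue and vessel markers (median -5.57), 4 of 10 immune markers and 3 of 10 progenitor markers were lower. Of 11 immature OSN markers 1 was higher and 0 lower (median 0.03), so as a list they did not set these OSN apart. Gap43 was at 93.8 and 672 TPM in OSN and at 498 and 614 TPM in mCherry-negative cells. Those mCherry-negative cells held neurons too, with Omp at 1937 and 3561 TPM. The part of these markers in the ribosomal protein values was not tested.

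**Figure D4:**
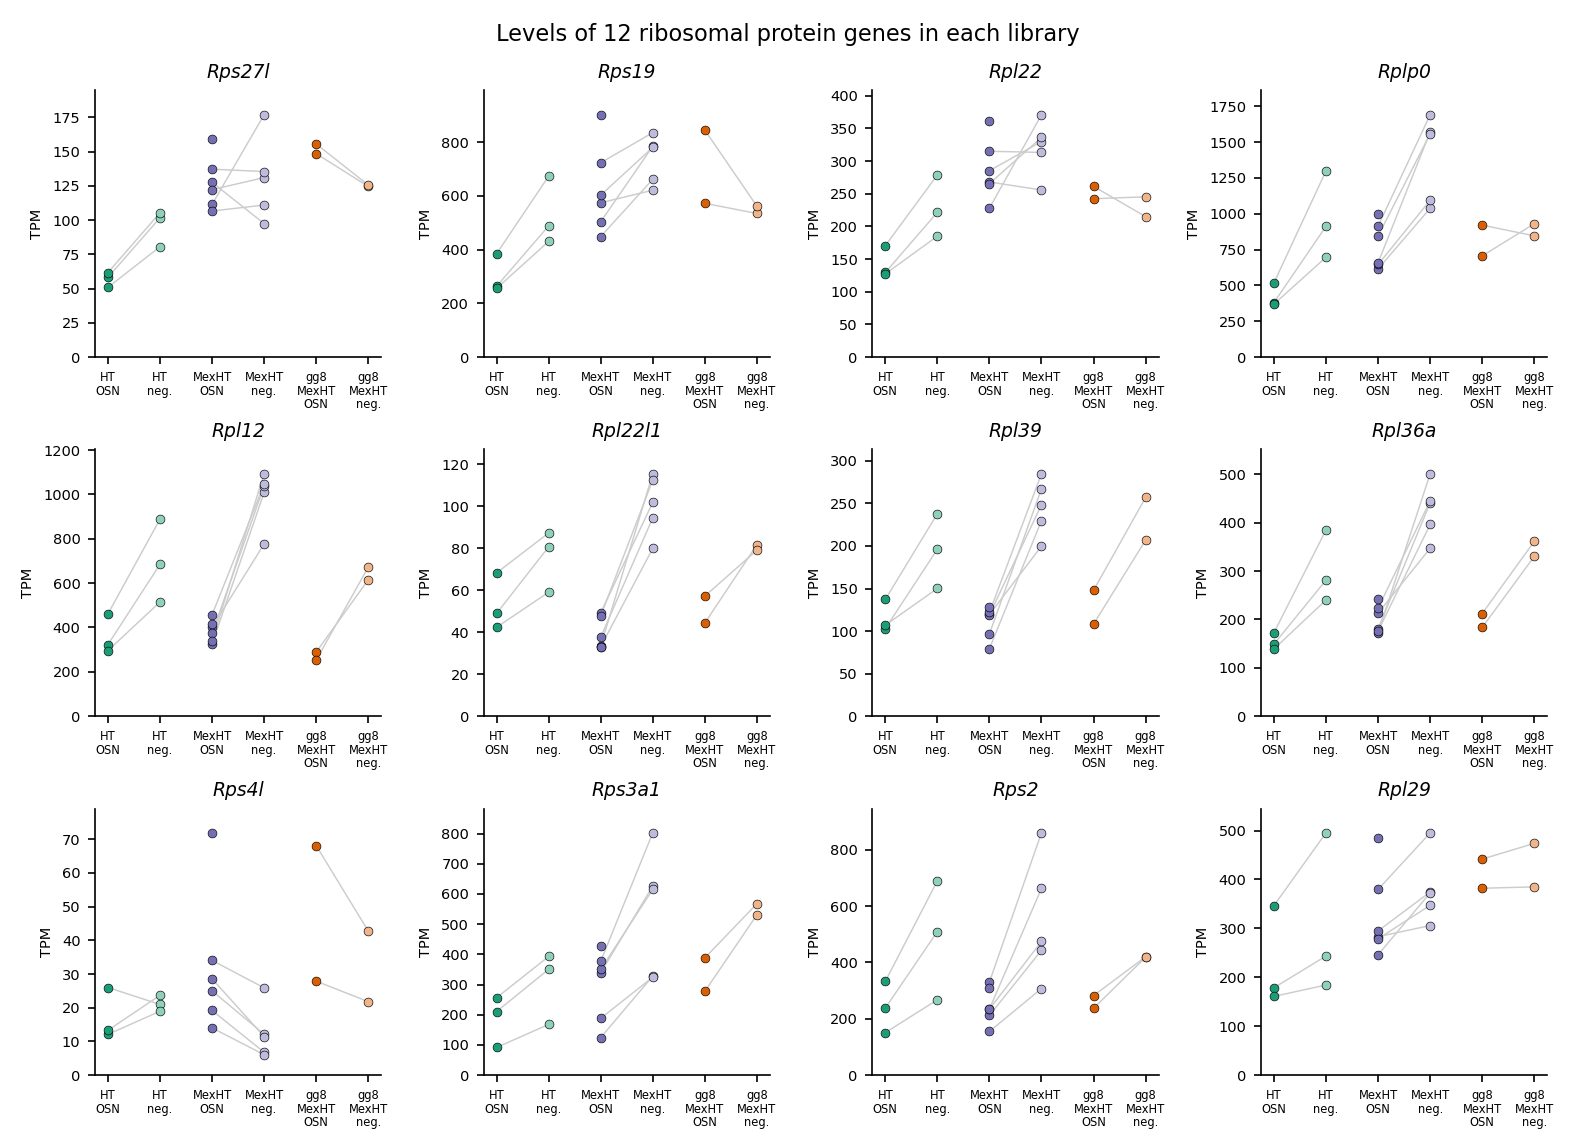
Level in TPM (vertical axis, linear and from 0) of 12 ribosomal protein genes in each library, by group (horizontal axis), with 1 panel a gene. Points are libraries and lines join the fractions of 1 mouse. Rps27l, Rps19, Rpl22 and Rplp0 separate MexHT OSN from HT OSN, Rpl12 and Rpl39 separate the fractions (Rpl12 at 326 to 457 TPM in MexHT OSN and 777 to 1093 TPM in the mCherry-negative cells), and Rps4l, Rps3a1, Rps2 and Rpl29 have the largest SD within groups on the log2 scale (0.68, 0.67, 0.53 and 0.45).

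Paralogs were set beside their partners. Rps27 and Rps27l encode closely related small subunit proteins and lie at chr3:90212667-90213648 and chr9:66944624-66949522 (GRCm38.p6). Their coding sequences, from GENCODE M21, are shown because Rps27l changed most and Rps27 did not pass the test. They have 255 bases each and are identical at 76.1% of them, and the capitals mark the 61 positions that differ.
Rps27: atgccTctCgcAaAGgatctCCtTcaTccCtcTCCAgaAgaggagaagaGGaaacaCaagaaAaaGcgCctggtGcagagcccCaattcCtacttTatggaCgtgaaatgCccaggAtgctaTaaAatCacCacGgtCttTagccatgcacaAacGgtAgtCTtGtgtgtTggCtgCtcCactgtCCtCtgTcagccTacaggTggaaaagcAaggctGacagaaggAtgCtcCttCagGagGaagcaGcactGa
Rps27l: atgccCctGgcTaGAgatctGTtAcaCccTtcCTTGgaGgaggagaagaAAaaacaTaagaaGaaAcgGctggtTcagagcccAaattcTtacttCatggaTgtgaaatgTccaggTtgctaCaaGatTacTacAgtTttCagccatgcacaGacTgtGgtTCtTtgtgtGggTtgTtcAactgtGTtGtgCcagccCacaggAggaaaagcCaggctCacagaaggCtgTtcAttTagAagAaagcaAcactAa

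Rps27 was listed at a mean of only 4.61 TPM, on 2 to 14 counts a library, and differed by -0.10 between the constructs in OSN. Of the windows of 50 bases in its transcripts, 98.65% also occur in another annotated gene, against 22.44% for Rps27l. How reads that match several places were counted is not given in the sources used here, so the listed level of Rps27 is uncertain, as are those of Rpl30 (1.49 TPM, 47.79% of windows shared) and Rpl34 (1.32 TPM, 37.91%). Sharing alone did not order the members by level (Spearman's rho 0.084 over 82 members with a transcript, across genes), and 38 of the 82 shared more than 50% of their windows, among them Rpl36a (85.48%) and Rps2 (71.29%).

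Rpl22 and Rpl22l1 have coding sequences that are 72.7% identical. Between the fractions of MexHT mice Rpl22l1 was lower in OSN (log2 difference -1.35), while Rpl22 differed by -0.17 (limma adjusted p = 0.281). Rpl7l1 (58.1 TPM), a paralog of Rpl7 (1136 TPM) with 64.8% identity, differed by 0.37 between constructs in OSN (limma adjusted p = 0.0646), where Rpl7 was higher by 0.52 (adjusted p = 0.016). Rpl3l, the muscle paralog of Rpl3, was at 0.908 TPM on 0 to 8 counts, and Rpl39l, the testis-enriched paralog of Rpl39, at 0.35 TPM on 0 to 3 counts. Both lie at or near the floor of 3 counts, and no fold is given. The 4 X-linked members, Rpl10, Rpl36a, Rpl39 and Rps4x, had a median difference of 0.40 between constructs in OSN with 2 of 4 higher, and the autosomal members 0.46 with 37 of 77.

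Some members varied between mice in a way that recurred in both fractions. These were picked after their values were seen. Rps3a1, a small subunit protein of the solvent side, had 211, 256 and 91.8 TPM in HT OSN and 351, 393 and 168 TPM in the mCherry-negative cells of the same mice, so mouse 3 was low in both. In MexHT mice 1 and 2 it was at 124 and 188 TPM in OSN and at 328 and 324 TPM in mCherry-negative cells, the lowest of their groups. The other MexHT OSN libraries were at 339 to 427 TPM. Rps2 was lowest in HT mouse 2 in both fractions (151 and 267 TPM) and in MexHT mouse 4 (155 and 307 TPM). Rpl29 was highest in HT mouse 3, at 347 TPM in OSN, where the other mice had 179 and 161 TPM, and at 496 TPM in mCherry-negative cells, where they had 244 and 184 TPM. The pooled SD within groups on the log2 scale was 0.68 for Rps4l, 0.67 for Rps3a1, 0.53 for Rps2 and 0.45 for Rpl29, and 0.11 for Rps13. Between 66.57% (Rpl29) and 71.29% (Rps2) of the windows of Rps3a1, Rps2 and Rpl29 are shared with other genes, and whether that bears on their spread was not tested.

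Genes that make ribosomes or share TOP control were read beside the members. Of all genes tested in MexHT OSN against HT OSN, 19.9% were called higher and 16.8% lower. In MexHT OSN against HT OSN, 31 of 53 ribosome assembly factors were higher and 0 lower (median 0.53), led by Imp4 (0.94), Nip7 (0.93) and Nop16 (0.93), nucleolar factors of the small and large subunit precursors. RNA polymerase I genes, which make the ribosomal RNA precursor, were higher for 9 of 14 (median 0.51), led by Taf1d (0.94), Twistnb (0.85) and Polr1a (0.69). Translation factors and other TOP messengers were higher for 16 of 26 and lower for 1 (median 0.47), led by Eef1g (0.86), Eif3f (0.72) and Eif3h (0.70). The lower one was Pabpc1, the cytosolic poly(A)-binding protein (-0.66, limma adjusted p = 0.00183). Chaperones that hold single ribosomal proteins were higher for 2 of 7, Pdcd2 (0.69) and Pdcd2l (0.43), too few to set apart from the share of all genes. Among mTOR pathway genes and TOP regulators 9 of 21 were higher and 1 lower. The highest were Ddit4 (1.61) and Sesn2 (1.14), stress-induced inhibitors of mTOR, and Mycn (1.54), and the lower one was Deptor (-0.73), another mTOR inhibitor.

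Mitochondrial ribosomal proteins, which serve the ribosome of another compartment, were higher for 41 of 77 in MexHT OSN (median 0.43), led by Mrpl35 (1.00), Mrps11 (0.95) and Mrpl22 (0.94). Of all genes tested, 19.9% were called higher, and the cytosolic members had a median of 0.44 there. Between constructs in mCherry-negative cells it was 0.05, against 0.39 for the cytosolic members, with none called in either. Between the fractions of MexHT mice the mitochondrial median was 0.40, with 50 higher and 3 lower, against -0.51 for the cytosolic members. All genes tested there had a median of 0.16, with 35.8% higher and 27.6% lower. In HT mice all genes had a median of 0.10 and the cytosolic members -0.60, and none of the mitochondrial ones was called (median 0.03). As a share of all TPM they took 0.435 to 0.445% in HT OSN, 0.52 to 0.691% in MexHT OSN, 0.43 to 0.466% in HT and 0.445 to 0.476% in MexHT mCherry-negative cells, so MexHT OSN stood above the other 3 groups. In the interaction 16 of 77 were higher and 0 lower (median 0.38), against the single cytosolic call. Over all genes tested in the interaction, 7.05% were higher and 5.37% lower, with a median of 0.10. Translation factors and other TOP messengers had the sign of the cytosolic members between the fractions of gg8+OMP mice, with medians of -0.14 in MexHT mice (1 higher and 9 lower of 26) and -0.30 in HT mice (3 lower). Of all genes, 27.6% were lower in MexHT and 9.11% in HT mice. In gg8 mice the TOP list had a median of 0.16 (0 higher and 1 lower of 26), against -0.19 for the cytosolic members.

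**Figure D5:**
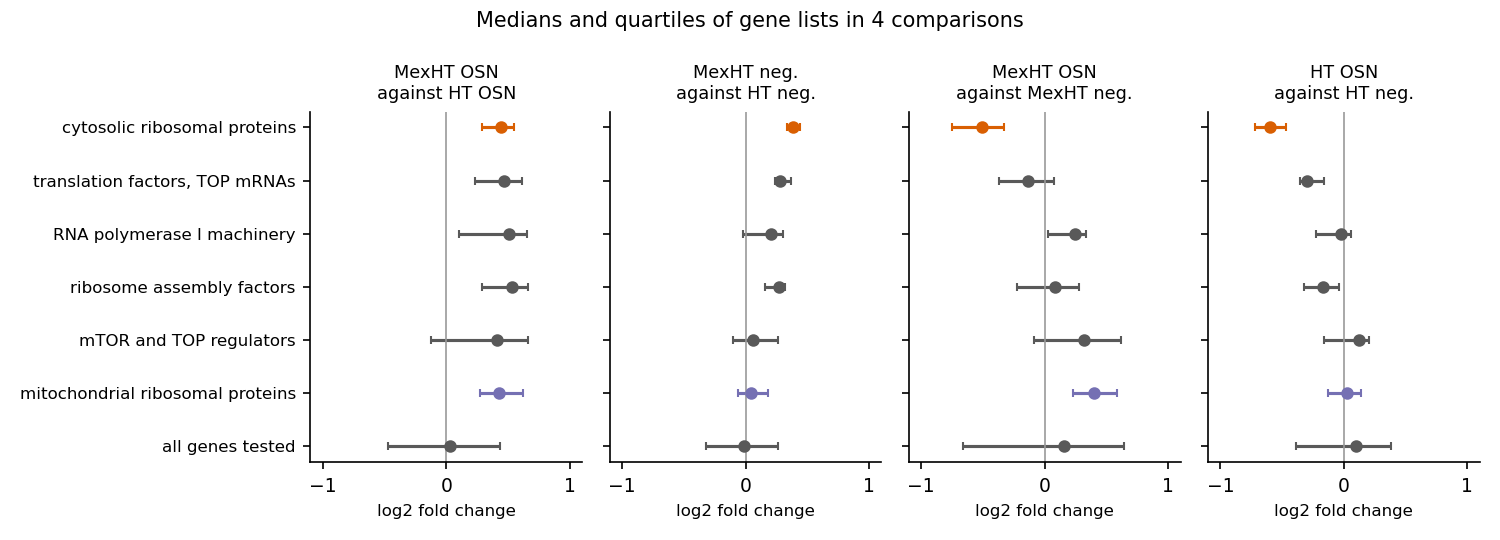
Median (point) and quartiles (line) of the log2 difference of each gene list (horizontal axis, log2(TPM + 1) scale) in 4 comparisons with both drivers. Cytosolic ribosomal proteins sit at 0.44, 0.39, -0.51 and -0.60, and mitochondrial ribosomal proteins at 0.43, 0.05, 0.40 and 0.03.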

How the data were processed

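RNA from sorted cells was extracted with TRIzol and made into strand-specific total RNA libraries, per the labels' protocols. The submitters' processing notes name FastQC, cutadapt, STAR and bedtools and the mm10 build. The counting program and the annotation are not given in the sources used here. The authors deposited 2 tables of TPM, one for the 17 gg8+OMP and one for the 4 gg8 libraries, which were scaled separately, so tests stay within a table. Symbols turned into dates (27 a table) were left out of tests.

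The members, gene lists, marker lists and the naming rule were chosen with earlier results of these data known. In each comparison, the rule named the 5 members with the largest change in each direction past the threshold (mean of 5 TPM or more where higher), the 5 most abundant members, paralogs beside their partners, and members called against the majority. It also named up to 3 genes in each direction from each pathway list for MexHT OSN against HT OSN. 1 member that the rule names is not reported here. Members named beyond this rule were picked with their values in view. Some pathway symbols were not in the tables (1 of 27 TOP messengers, 3 of 17 polymerase I and 3 of 56 assembly genes), and of 5 red blood cell genes 3 and 1 were in the tables, so that list was not used.

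Each comparison was fitted on its own groups with limma 3.58.1 in R 4.3.3 (mean trend) on log2(TPM + 1), which understates the change of low genes. Genes whose mean over the libraries fitted reached 1 TPM were tested, 2-sided, with Benjamini-Hochberg adjustment over all of them and a threshold of 0.05. Python 3.11.15 was used for summaries. Where samples of 1 group are called mice, the labels give 1 replicate number a mouse for either fraction.

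Whole counts were recovered from the TPM steps for 23613 of 23614 genes (tolerance 0.001) and, with the gene lengths so found, for 22775 of 22808 genes of the gg8 table (99.86%, tolerance 0.02). These totals are the depth, and a floor of 3 counts covers counting error only. Chi-square divided by its degrees of freedom ran from 3.33 to 114.04 over the 33 pairs of libraries within groups, so every library counted as a replicate. The script was tested on simulated negative binomial counts with the same fixed dispersion for all genes, drawn independently for each library. Alternatives were a pseudocount of 0.1, no filter, median-of-ratios scaling, rescaling without the members, quantile normalization, array weights, voom on the recovered counts, the replicate as a block, all 4 groups in 1 fit, Xist as a covariate and leaving out each library.

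Fractions were paired by the replicate number in the labels, read as the mouse. The correlations of their deviations from the group means were -0.113 to 0.421 in MexHT, 0.183 to 0.475 in HT and 0.018 in gg8 mice. For OSN of MexHT mice 1 and 3 and HT mouse 1, a mCherry-negative library of another number correlated more highly than the own one. The correlations thus do not settle the pairing. Between constructs the numbers name different mice.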

Additional observations from a re-analysis of the deposited data

Results flagged for a closer look

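Of 58 groups of at least 4 libraries examined for the named members, 3 held a library far from the others, and chance gives about 1 in 20 such groups. Rps4l was at 71.9 TPM in MexHT OSN of mouse 6, far above the other 5 libraries of that group. In the MexHT mCherry-negative cells of mouse 2, Rpl12 was at 777 TPM and Rplp1, an acidic stalk protein, at 1615 TPM, the lowest of their groups, while the other 4 libraries lay at 1009 to 1093 TPM for Rpl12 and 2108 to 2252 TPM for Rplp1. That library also had the lowest share of ribosomal proteins in its group, 4.79%. Rpl22l1 had an interaction of construct and fraction of -0.84 (limma adjusted p = 0.0441). It was 1 call among 81 members, against 5.37% of all genes tested called lower there. Most fits that left out 1 library lost it.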

How the results depend on the processing

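No named member reversed under any alternative. Over the alternatives, 276 values of named members kept their call and 51 lost it. For MexHT OSN against HT OSN, 39 members higher became 24 with median-of-ratios scaling, 59 with array weights and 1 with Xist as a covariate, and 1 was lower without the filter. In mCherry-negative cells array weights called 73 higher and 1 lower (29.6% and 30% of all genes), and Xist moved the median to 0.68. Between MexHT fractions quantile normalization called 3 higher. Between HT fractions, 16 lower became 9 without the filter, 77 with array weights, 9 with voom and 41 with all groups in 1 fit. Between gg8 fractions, 1 lower became 0 with a pseudocount of 0.1, median-of-ratios or quantile normalization, and the median reversed to 0.042 with quantile normalization. In the interaction, 1 lower became 0 without the filter or with voom and 6 with array weights, and 1 (quantile) or 3 (array weights) were higher. Leaving out 1 library gave 12 to 50 higher between constructs in OSN and, between fractions, 0 to 50 lower in HT, 56 to 68 lower in MexHT and 0 to 4 lower in gg8 mice (median -0.427 to -0.0128). The interaction then had 0 to 2 higher and 0 to 2 lower, and Rpl22l1 was lost in 11 such fits. Where the cause of a change is not in the alternative's construction, it was not tested. For most of these member counts, here and above, the share of all genes called in the same fit is not given. Such counts therefore do not show a change particular to the members.

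With the replicate block, members lower in HT OSN than in mCherry-negative cells numbered 73, those in gg8 mice 0, and 1 member was higher in the interaction. Between constructs in OSN, where equal numbers name different mice (correlations 0.113, 0.133 and -0.234), the block left 16 higher and 1 lower. In mCherry-negative cells it kept 0 calls (median 0.32), although the correlations were 0.343, 0.417 and 0.23. The other calls were not changed by the block.
Median-of-ratios scaling shifted the median of all genes between MexHT fractions by -0.13 and voom by -0.14. The members' distance from it was -0.68 with either, against -0.67. Depth limits Rpl30, Rpl34, Rpl3l and Rpl39l.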
